A study of Mus musculus with 18 samples.

Results

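The 9 genes described here encode skeletal muscle forms of proteins that the heart makes from other genes: the calcium pump Atp2a1, the troponin I genes Tnni1 and Tnni2, the troponin T genes Tnnt1 and Tnnt3, troponin C (Tnnc2), the myosin light chains Myl1 and Mylpf, and the alpha-actinin Actn3. They are 9 of the 38355 genes in the count tables, and were selected on measured levels, since several of them were higher in ventricles with a cyclin D2 transgene. That difference is therefore given as a description with no test. The study sequenced left ventricle RNA from mice on a (DBA/2J x C3HeB/FeJ)F1 background, 18 libraries in all. WT mice (n = 5) had no transgene and no surgery. In MHC-cycD2 a myosin heavy chain promoter drives cyclin D2, a protein of the G1 phase of the cell cycle, in heart muscle cells. By the labels all other mice carried this transgene. They had a sham operation (n = 5), transverse aortic constriction, which loads the ventricle with pressure and is called TAC (n = 3, replicates 1, 2 and 4), or an aortocaval shunt, which loads it with volume and is called Shunt (n = 5). Operations were at 8 weeks of age, and the age at tissue collection is not given in the labels used here. Each procedure had its own sham operation, and the labels do not say which one the sham mice had. Nothing in the labels says more of the replicates than that they are separate samples, so the p-values rest on their spread alone, and this may in part be technical.

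A muscle contracts when calcium released from the sarcoplasmic reticulum binds troponin C on the thin filament. Troponin I and troponin T pass this signal to tropomyosin and actin, the myosin heads with their essential and regulatory light chains pull, and the calcium pump then refills the store. Fast skeletal, slow skeletal and heart muscle build this machine from separate genes, and the adult ventricle relies on Atp2a2, Tnni3, Tnnt2, Tnnc1, Myl3, Myl2 and Actn2. The developing heart uses some skeletal forms, among them Tnni1, before it switches to the adult set.

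Of the 9 genes, 5 lie on mouse chromosome 7. The stretches of 250 bases before the start site are shown for 4 genes, since they cover the gene with the largest difference between WT and transgenic ventricles (Atp2a1), a gene with a smaller difference of the same sign (Tnnt1), a fast light chain with the same sign (Mylpf) and a fast light chain without it (Myl1). They are from RefSeq on GRCm38.p6, 5′ to 3′ on the strand of the gene, at chr7:126463074-126463323 (minus strand), chr7:4515976-4516225 (minus), chr7:127211358-127211607 (plus) and chr1:66945057-66945306 (minus). Capitals mark the E-box CANNTG, which myogenic factors of the MyoD family bind, and the MCAT motif CATTCC, which TEAD factors bind, each searched on both strands.
Atp2a1: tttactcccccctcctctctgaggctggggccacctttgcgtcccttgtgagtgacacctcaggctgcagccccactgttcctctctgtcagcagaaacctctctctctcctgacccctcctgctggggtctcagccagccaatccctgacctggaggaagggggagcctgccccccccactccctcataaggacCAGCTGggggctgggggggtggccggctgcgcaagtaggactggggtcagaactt
Tnnt1: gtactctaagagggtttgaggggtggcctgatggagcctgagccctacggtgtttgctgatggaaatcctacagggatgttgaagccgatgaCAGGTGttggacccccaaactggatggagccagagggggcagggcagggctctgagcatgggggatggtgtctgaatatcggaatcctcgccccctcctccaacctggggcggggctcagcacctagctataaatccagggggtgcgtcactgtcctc
Mylpf: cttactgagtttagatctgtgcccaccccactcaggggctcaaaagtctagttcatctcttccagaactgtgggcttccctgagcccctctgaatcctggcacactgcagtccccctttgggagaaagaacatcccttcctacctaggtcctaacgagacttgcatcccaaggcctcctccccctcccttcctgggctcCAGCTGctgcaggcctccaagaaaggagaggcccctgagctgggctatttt
Myl1: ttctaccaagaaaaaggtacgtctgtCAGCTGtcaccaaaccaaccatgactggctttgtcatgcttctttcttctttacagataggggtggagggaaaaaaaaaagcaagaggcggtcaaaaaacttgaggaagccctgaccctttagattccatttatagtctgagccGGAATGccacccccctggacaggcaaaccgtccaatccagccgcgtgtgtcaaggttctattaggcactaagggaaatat
RefSeq held such a stretch for 6 of the 9 genes, with 2 start sites for Tnni1. All 7 stretches had at least 1 E-box, as did 66.22% of the 32851 stretches of the same length in the mouse table. The E-box was at -55 before the Atp2a1 start, -51 for Mylpf, -158 for Tnnt1 and -224 for Myl1. An MCAT motif was found in the Myl1 stretch alone, at -80, and 12.64% of all stretches held one. The longer MEF2 and CArG motifs, the MEF3 motif TCAGGTT and the E2F motifs TTTCGCGC and TTTGGCGC were in none of the 7. They were in 0.5084%, 1.467%, 3.492% and 0.6545% of all stretches.

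Libraries held 19297821 to 30594075 gene counts. Ccnd2, the gene the transgene adds to, was at 141 to 189 CPM (counts scaled to a common library size) in WT, 21129 to 30478 in sham and 17739 to 22211 in Shunt libraries. TAC replicate 1 had 22050 CPM of it and replicate 4 had 25843. In the library labelled cycD2 TAC replicate 2 it was at 228 CPM, near the WT level, so results on TAC are given with and without it. Libraries also split in ways the labels do not give. Y-linked genes were expressed in the WT and sham libraries and TAC replicate 4, and not in the Shunt libraries and TAC replicates 1 and 2. The clock gene Arntl was above Dbp, which peaks at the opposite time of day, in every TAC library, in WT replicates 1 to 3 and in sham replicates 1 and 2. It was below Dbp in the other WT and sham libraries and all Shunt libraries. Sex and Shunt against sham thus cannot be told apart, nor can time of day and Shunt against TAC. WT mice had no operation, so transgene and sham operation cannot be told apart in sham against WT either. The atrial genes Myl7, Myl4 and Sln were high in replicates 2 and 5 of sham and in replicates 2 and 4 of both TAC and Shunt.

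In the transgenic sham ventricle, the skeletal calcium pump, the 5 skeletal troponins and the regulatory light chain Mylpf stood above WT in every library, while Myl1 and Actn3 did not. Of the 9 genes, 7 had enough counts for the fit of 14876 genes, and 6 of these had every sham library above every WT library, as had 10.6% of all genes fitted. TAC replicates 1 and 4 were above WT in the same 6, as they were in 21.4% of all genes. By the threshold used for other genes 6 of the 7 were higher and none lower, where 28.4% of all genes passed, 13.5% higher and 14.9% lower. Since this difference chose the genes, nothing is read from either count. The median log2 fold change of the 7 was 3.33, against -0.01 over all genes fitted. In RNA of whole tissue, a change in the number of cells that make a transcript and a change in the amount per cell cannot be told apart.

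Atp2a1 (ENSMUSG00000030730, GRCm38 chromosome 7, 126445858 to 126463108) encodes the calcium pump of fast skeletal fibres. In WT replicates 1 to 5 it was at 0.349, 0.258, 0.393, 0.407 and 0.624 CPM, from 5 to 14 counts. Sham replicates 1 to 5 had 9.46, 10.3, 10.6, 13.8 and 8.90 CPM. Every sham library was above every WT library, and the fitted difference was 4.67 ± 0.40 on the log2 scale (SE), or 25.5-fold. TAC replicates 1, 2 and 4 had 4.63, 0.592 and 4.29 CPM, and Shunt replicates 1 to 5 had 7.42, 8.98, 8.35, 8.01 and 8.22. TAC replicates 1 and 4 lay below every sham and Shunt library and above every WT library, and replicate 2 lay within the WT range. Rabep2, which overlaps Atp2a1 on the other strand, was at 8.45 to 13.1 CPM in all libraries and did not pass the test between sham and WT (log2 fold change 0.03, adjusted p = 0.900). The library kit does not keep the strand, so reads of such a pair in the shared stretch cannot be assigned.

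Tnni1 (ENSMUSG00000026418, chromosome 1, 135779434 to 135810989) encodes slow skeletal troponin I, the form of the fetal heart. It was at 0.150, 0.206, 0.295, 0.136 and 0.178 CPM in WT replicates 1 to 5, which is 3 to 6 counts. The sham libraries had 2.40, 5.09, 2.39, 2.46 and 5.40 CPM, all above WT. Replicates 2 and 5 stood above the other three. After TAC, replicates 1, 2 and 4 had 1.20, 0.671 and 3.44 CPM, and Shunt replicates 1 to 5 had 2.50, 2.33, 2.65, 4.84 and 2.73. The higher libraries of Tnni1 in sham, TAC and Shunt (sham 2 and 5, TAC 4, Shunt 4) were among those with high Myl7, which was at 173, 319, 152 and 204 CPM there. Shunt replicate 2 and TAC replicate 2 had high Myl7 as well (84.9 and 111 CPM) without a high Tnni1. The share of atrial tissue in the Tnni1 values was not tested. With the mean of the atrial genes as a covariate, the difference between sham and WT went from 4.18 to 3.46.

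Tnni2 (ENSMUSG00000031097, chromosome 7, 142441808 to 142444410), fast skeletal troponin I, was at 1.30, 0.876, 0.983, 0.497 and 0.936 CPM in WT replicates 1 to 5. It was at 10.7, 7.88, 8.598, 12.6 and 6.42 CPM in sham replicates 1 to 5, a difference of 3.33 ± 0.40 (log2, SE). No sham library overlapped WT. The TAC libraries 1, 2 and 4 had 4.55, 0.631 and 5.37 CPM, and Shunt replicates 1 to 5 had 6.65, 6.49, 5.87, 4.99 and 7.87. As with Atp2a1, TAC replicate 2 lay within the WT range and the other TAC libraries below every sham library. Shunt and sham overlapped, with 3 of the 5 Shunt libraries above the lowest sham library.

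Tnnt1 (ENSMUSG00000064179, chromosome 7, 4504570 to 4516382), slow skeletal troponin T, had the smallest difference between sham and WT of the 6 genes. WT replicates 1 to 5 had 23.2, 21.5, 19.95, 28.4 and 27.9 CPM, and sham replicates 1 to 5 had 51.1, 42.5, 60.1, 70.6 and 41.0, or 2.19-fold more in the fit. TAC replicates 1, 2 and 4 had 32.9, 13.6 and 36.1 CPM. TAC replicate 2 was below all WT libraries, and replicates 1 and 4 were between WT and sham. Shunt replicates 1 to 5 had 50.8, 51.6, 49.0, 33.4 and 46.2 CPM, within the sham range except for replicate 4. The gene lies 1922 bases from Tnni3, the heart's own troponin I gene, on the same strand.

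Tnnt3 (ENSMUSG00000061723, chromosome 7, 142498836 to 142516009), fast skeletal troponin T, was at 0.349, 0.412, 0.344, 0.181 and 0.357 CPM in WT replicates 1 to 5, which is 4 to 8 counts. Sham replicates 1 to 5 were at 3.23, 3.06, 3.36, 4.79 and 2.70 CPM. This is a difference of 3.37 ± 0.52 (log2, SE), with no overlap. After TAC, replicates 1, 2 and 4 were at 5.39, 0.434 and 4.21 CPM, and Shunt replicates 1 to 5 at 4.92, 3.02, 1.68, 2.53 and 3.12. TAC replicate 1 was above every sham library, while replicate 2 was just above the highest WT library. A transcript on the other strand, Prr33, overlaps Tnnt3 and was at 6.37 to 17.8 CPM, so its reads in the shared stretch cannot be told from those of Tnnt3.

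Tnnc2 (ENSMUSG00000017300, chromosome 2, 164777161 to 164779967), the troponin C of fast fibres, had too few counts for the fit. WT replicates 1 to 5 had 1, 0, 1, 0 and 0 counts, and sham replicates 1 to 5 had 3, 6, 5, 8 and 4. TAC replicates 1, 2 and 4 had 5, 0 and 4 counts, and Shunt replicates 1 to 5 had 9, 7, 8, 1 and 3. Over the libraries of a group, 26 sham counts against 2 in WT gave a ratio of 11.7 per unit of depth (95% exact interval 2.94 to 102), which covers counting error only. Each sham library was above each WT library, and the library with 0 counts outside WT was again TAC replicate 2. A count of 0 there allows up to 3 counts, or 0.118 CPM. Tnnc2 overlaps Ube2c, a gene of mitosis on the other strand at 1.62 to 20.1 CPM, which itself was higher in sham than in WT (log2 fold change 1.51, adjusted p = 0.0238, edgeR).

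The regulatory light chain gene Mylpf (ENSMUSG00000030672, chromosome 7, 127208890 to 127214298) serves fast fibres. It was at 0.897, 0.825, 0.393, 0.452 and 0.490 CPM in WT replicates 1 to 5 and at 2.44, 2.79, 2.99, 4.34 and 2.88 in sham replicates 1 to 5. The fitted difference was 2.34 ± 0.43 (log2, SE), and the groups did not overlap. The TAC libraries 1, 2 and 4 had 3.99, 0.631 and 4.94 CPM, and Shunt replicates 1 to 5 had 5.58, 3.51, 2.38, 2.57 and 3.48. TAC replicate 2 was within the WT range, and the other TAC and all Shunt libraries were above it.

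Myl1 (ENSMUSG00000061816, chromosome 1, 66924295 to 66945404) encodes the essential light chain of fast fibres and did not share this pattern. It was at 49.5, 41.9, 35.6, 29.7 and 42.4 CPM in WT replicates 1 to 5 and at 26.1, 30.5, 24.6, 28.6 and 29.4 in sham replicates 1 to 5. Sham was lower by a log2 fold change of -0.51 ± 0.33 (SE), and the ranges overlapped. TAC replicates 1, 2 and 4 had 105.0, 59.6 and 43.1 CPM, and Shunt replicates 1 to 5 had 81.9, 25.9, 20.1, 27.6 and 47.5. All TAC libraries were above all sham libraries, and in Shunt replicates 1 and 5 stood above the other three. The same 2 Shunt libraries had the most Nppa, the natriuretic peptide gene of the loaded heart, at 330.0 and 222 CPM against 25.6 to 53.5 in the other three. TAC replicate 2, which lacked the excess of Ccnd2, was above every sham library in Myl1.

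Actn3 (ENSMUSG00000006457, chromosome 19, 4861216 to 4877909), the alpha-actinin of fast fibres, stayed near the limit of detection in all groups. It had 7, 15, 8, 5 and 4 counts in WT replicates 1 to 5, 3, 4, 5, 5 and 6 in sham. TAC replicates 1, 2 and 4 had 12, 7 and 8 counts, and Shunt replicates 1 to 5 had 7, 9, 6, 3 and 8. The sham and WT ranges overlapped, and 23 sham counts against 39 in WT gave a ratio of 0.532 (95% exact interval 0.303 to 0.913, counting error only).

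**Figure D1:**
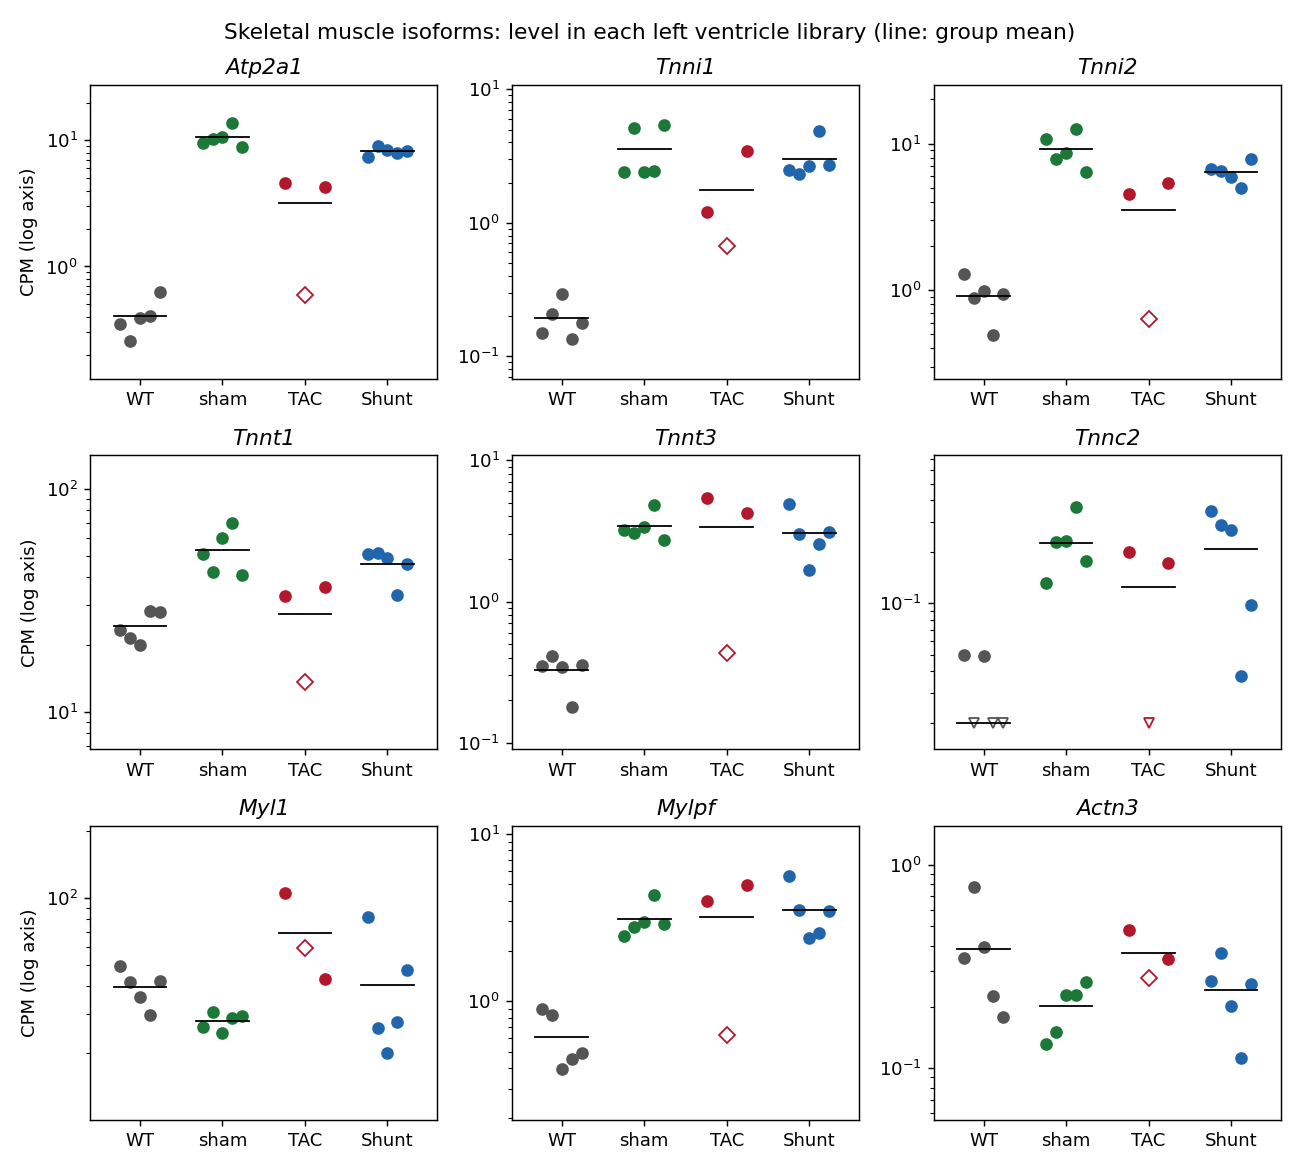
Level of each of the 9 genes in CPM on a log axis, 1 point per library, in WT (n = 5), sham (n = 5), TAC (n = 3) and Shunt (n = 5), with the group mean as a line; open diamonds are TAC replicate 2 and open triangles at the base mark libraries with 0 counts. Atp2a1, Tnni2, Tnnt3 and Mylpf in TAC replicate 2 (0.592, 0.631, 0.434 and 0.631 CPM) sit at or next to the WT points, and Myl1 does not follow this pattern.

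Divided by the length of their exons, the genes can be ranked within a group. In WT the order of mean RPKM (CPM per kilobase of exon) was Myl1 at 19.2 ± 3.62 (SD, n = 5), Tnnt1 at 10.97 ± 1.72, Tnni2 at 0.613 ± 0.191 and Mylpf at 0.576 ± 0.218, and the other 5 genes were at 0.208 or below. Myl1 and Tnnt1 thus led in the WT ventricle, while the ranges of Tnni2 and Mylpf overlapped and so did those of neighbours from Tnnt3 down. In sham the order was Tnnt1 at 24.1 ± 5.64, Myl1 at 13.4 ± 1.17, Tnni2 at 6.16 ± 1.61, Atp2a1 at 3.05 ± 0.55, Mylpf at 2.91 ± 0.69, Tnnt3 at 2.16 ± 0.51, Tnni1 at 0.986 ± 0.431, Tnnc2 at 0.282 ± 0.110 and Actn3 at 0.0693 ± 0.0198. Among these, only Atp2a1, Mylpf and Tnnt3 had ranges that overlapped with their neighbour in the order. In Shunt the order of the means was Tnnt1 (20.96), Myl1 (19.6), Tnni2 (4.26), Mylpf (3.30), Atp2a1 (2.36), Tnnt3 (1.93), Tnni1 (0.836), Tnnc2 (0.259) and Actn3 (0.0834). Here the ranges of Tnni2, Mylpf, Atp2a1 and Tnnt3 each overlapped the next in the order, as did those of Tnnt1 and Myl1, and of Tnnc2 and Actn3. In TAC Myl1 was first at 33.4 ± 15.5 (SD, n = 3) and Tnnt1 second at 12.5 ± 5.54, and from Mylpf at 3.00 ± 2.13 down every gene overlapped its neighbour. Without TAC replicate 2 the order was the same. Only Tnni2 (3.31) and Tnnt3 (3.03) then had ranges that overlapped.

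Against the heart's own forms the skeletal forms stayed small in RNA. Atp2a1 was 0.00400% ± 0.00129 (SD, n = 5) of the summed RPKM of the 3 calcium pump genes in WT, 0.0893% ± 0.0144 in sham, 0.0418% ± 0.0289 in TAC (n = 3) and 0.0687% ± 0.0056 in Shunt. Tnni1 and Tnni2 together were 0.0231% ± 0.0075 of troponin I in WT and 0.200% ± 0.018 in sham. Their share was 0.120% ± 0.074 in TAC and 0.175% ± 0.025 in Shunt. The largest skeletal share in sham was that of troponin T, where Tnnt1 and Tnnt3 made up 1.98% ± 0.41 against 0.810% ± 0.102 in WT. The exon length counts every annotated exon, 7752 bases for Tnnt2 and 2204 for Tnnt1, so the level of this share depends on it. Tnnt1 and Tnnt3 held 1.31% ± 0.62 in TAC and 2.17% ± 0.35 in Shunt. Mylpf was 0.0122% ± 0.0050 of the regulatory light chains in WT, 0.0504% ± 0.0105 in sham, 0.0555% ± 0.0341 in TAC and 0.0696% ± 0.0241 in Shunt. Myl1 went the other way, from 0.448% ± 0.089 of the essential light chains in WT to 0.360% ± 0.048 in sham, and was at 1.07% ± 0.56 in TAC. Without TAC replicate 2 the mean share in TAC was 0.0580% for Atp2a1 and 0.163% for Tnni1 with Tnni2. It was 1.66% for Tnnt1 with Tnnt3, 0.0752% for Mylpf and 1.08% for Myl1.

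Shares in 7 families were compared between sham, TAC and Shunt by exact 2-sided permutation tests, 21 in all, and none passed after adjustment (lowest adjusted p = 0.188). TAC was below all sham libraries in the share of Atp2a1 (difference -0.0475 percentage points) and of Tnni1 with Tnni2 (-0.0804), and above them in the share of Myl1 (difference 0.709). Each had an unadjusted exact p = 0.0357, the smallest that 3 libraries against 5 can give. Without TAC replicate 2 the difference was -0.0313 for Atp2a1 and -0.0377 for Tnni1 with Tnni2. The sham libraries also entered the choice of these genes, so differences from sham are not independent of it. The share of Atp2a1 differed by -0.0206 percentage points between Shunt and sham (unadjusted exact p = 0.0159), with 1 Shunt library inside the sham range. Of these 7 shares, 3 had an unadjusted p under 0.05 for TAC against sham, 1 for Shunt against sham and 0 in the comparison of Shunt and TAC.

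**Figure D2:**
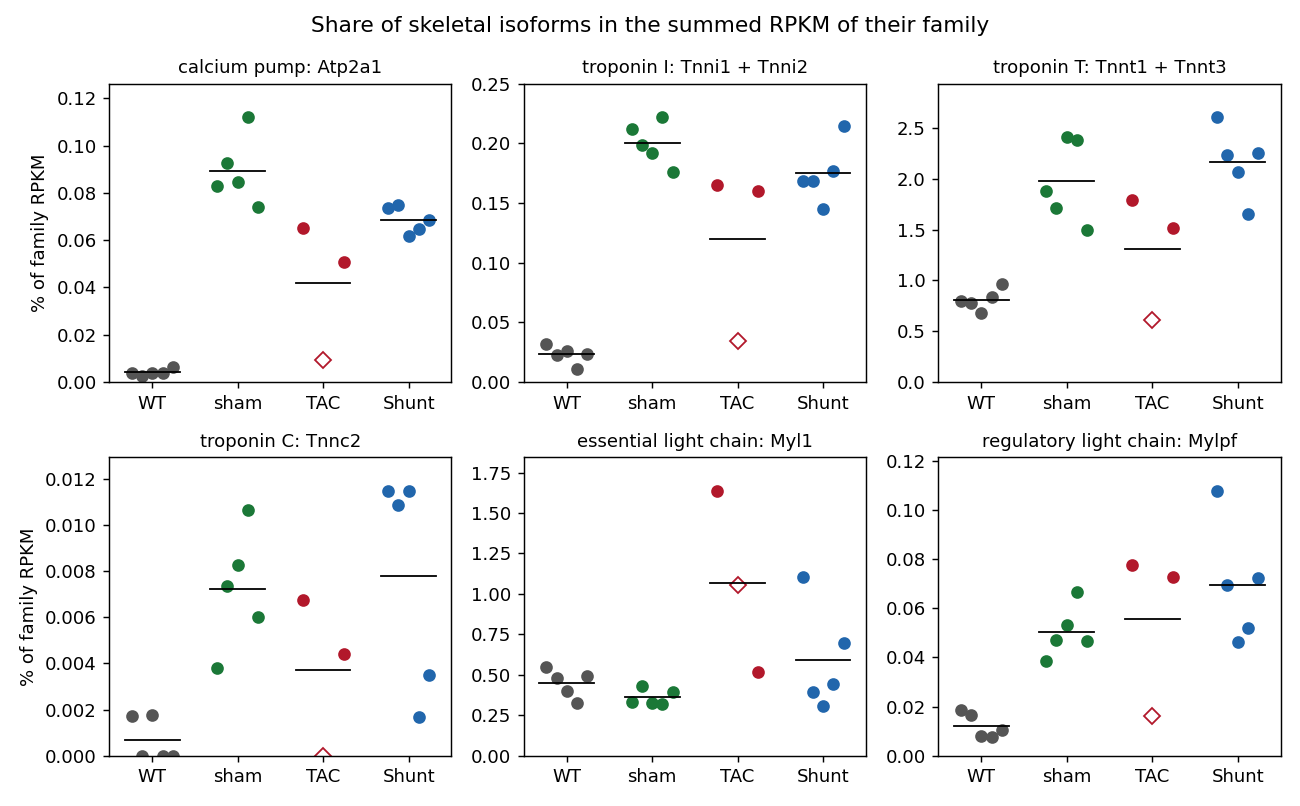
Percent of the summed RPKM of a protein family that came from its skeletal members, 1 point per library and a line at the group mean, for 6 of the 7 families; every axis starts at 0 and open diamonds are TAC replicate 2. The troponin T share is the highest of these in sham at 1.98%, and the calcium pump share is 0.0893% there against 0.00400% in WT.

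Pressure load was then compared with sham, to ask how the skeletal forms change in a transgenic ventricle after TAC. Atp2a1, Tnni2 and Tnnt1 were lower in TAC and Myl1 was higher. Atp2a1 fell by 1.74 ± 0.37 on the log2 scale (SE), to a level 3.35-fold lower (adjusted p = 0.0019, edgeR quasi-likelihood test with Benjamini-Hochberg adjustment), and was lower in 3 of 3 TAC libraries than in any sham library. Tnni2 fell by 1.39 ± 0.41 (0.0160) and Tnnt1 by 0.95 ± 0.26 (0.0113). These 3 of the 7 genes had every TAC library below every sham library, as had 13.6% of all genes. Myl1 rose by 1.31 ± 0.37, or 2.49-fold (adjusted p = 0.0132), and was above every sham library in all 3. In all 4 of 7 genes passed, 1 higher and 3 lower, where 30.9% of all 14876 genes passed, 16.4% higher and 14.5% lower. The median log2 fold change of the 7 was -0.95, against 0.01 over all genes. The sham libraries also entered the choice of these genes, so lower values after TAC are not independent of it.

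Tnni1 did not pass (-1.02 ± 0.42, adjusted p = 0.0770), and Tnnt3 (-0.04 ± 0.46) and Mylpf (0.04 ± 0.42) had means close to sham that joined 2 high libraries with 1 low one. The 95% interval of Tnnt3 reached from -0.94 to 0.87 and that of Mylpf from -0.78 to 0.87. Without TAC replicate 2, Tnnt3 was at 0.47 ± 0.29 (adjusted p = 0.273) and Mylpf at 0.52 ± 0.30 (0.236). Thus the 3 fast genes Atp2a1, Tnni2 and Tnnt3 did not move alike in TAC replicates 1 and 4. Atp2a1 passed without replicate 2 at -1.26 ± 0.18 (1.78e-04), as did Tnni2 at -0.91 ± 0.26 (0.0164), Tnnt1 at -0.64 ± 0.21 (0.0412) and Myl1 at 1.39 ± 0.42 (0.0309), where 21.7% of all genes passed. Myl1 rested on replicate 1, without which it was at 0.88 (0.112), and Tnni1 passed without replicate 4 (-1.93, adjusted p = 0.0021), with limma-voom (-1.26, 0.0316) and with the atrial genes as a covariate (-1.10, 0.0191). Within the libraries with Arntl above Dbp (2 sham and 3 TAC) none of the 7 passed, with Atp2a1 at -1.65 (0.120), Tnni2 at -1.41 (0.192), Tnnt1 at -0.77 (0.195) and Myl1 at 1.29 (0.0611). Without TAC replicate 2 in that subset, Atp2a1 (-1.15, adjusted p = 0.0047), Tnni2 (-0.90, 0.0269) and Tnnt1 (-0.44, 0.0406) passed, and Myl1 (1.39, 0.110) did not. With Y-linked genes as a covariate none passed either, with Atp2a1 at -1.30 (0.237). Of all genes, 373 of 14876 passed with that covariate. Within the libraries with Arntl above Dbp 1495 of 14775 passed, and 1752 of 14653 there without TAC replicate 2. Nothing is read from the 2 counts of 0, since few genes passed in these settings.

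The heart's own forms changed as well. Of the 7 counterparts, 3 fell and 1 rose after TAC, where 14.5% of all genes fell and 16.4% rose. Atp2a2, the calcium pump of the heart, fell by 0.70 ± 0.10 (adjusted p = 6.15e-05, edgeR), and Tnni3 fell by 0.68 ± 0.12 (4.51e-04). Tnnt2 was at -0.24 (0.0460), a call lost when TAC replicate 2 (0.124), TAC replicate 1 (0.195) or sham replicate 1, 4 or 5 was left out (up to 0.0965), while Actn2 rose by 0.46 ± 0.11 (0.0035). Tnnc1, Myl2 and Myl3 did not pass, at 0.07, -0.22 and -0.20. The fold change of Atp2a1 was -1.74 beside -0.70 for Atp2a2, and that of Tnni2 was -1.39 beside -0.68 for Tnni3. Without TAC replicate 2 Atp2a1 was at -1.26 and Tnni2 at -0.91. Leaving out any 1 library kept Atp2a2 between -0.82 and -0.63 and Tnni3 between -0.895 and -0.56. Of 15 other genes of the thin filament and calcium store, 4 rose and 3 fell (median 0.20), beside the same shares of all genes. Acta1, the skeletal actin, rose by 5.19 ± 0.83 (3.46e-04), while phospholamban, Pln, which restrains the pump, fell by 0.62 ± 0.09 (1.18e-04).

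In the volume-loaded ventricle none of the 7 genes passed against sham, where 0.242% of all genes did, 0.108% higher and 0.134% lower. DESeq2 and limma-voom also called 0 of them, and 0 had an unadjusted p under 0.05 in the edgeR fit. The log2 fold changes were -0.37 ± 0.29 (SE) for Atp2a1, -0.24 ± 0.34 for Tnni1, -0.53 ± 0.33 for Tnni2 and -0.20 ± 0.22 for Tnnt1. They were -0.17 ± 0.40 for Tnnt3, 0.54 ± 0.33 for Myl1 and 0.18 ± 0.36 for Mylpf. The 95% intervals, -0.94 to 0.19 for Atp2a1 and -1.18 to 0.11 for Tnni2, reach well below 0, so these values do not show that the groups are alike. All 5 Shunt libraries stayed above all WT libraries in 6 of the 7 genes, Myl1 being the exception, as 10.8% of all genes did. Of the other lists, 0 of 7 counterparts, 0 of 20 fibre markers and 0 of 14 regulators passed in this comparison.

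Volume load was then set against pressure load. Both groups are transgenic by their labels, though TAC replicate 2 lacked the excess of Ccnd2. The genes were chosen for their level in transgenic ventricles, so this comparison is not free of that choice. Atp2a1 was higher in Shunt than in TAC by 1.37 ± 0.36 on the log2 scale (SE), or 2.59-fold (adjusted p = 0.0102, edgeR), and Tnnt1 by 0.75 ± 0.26 (0.0410). These were the 2 of 7 genes that passed, where 27% of all genes did, 13.3% higher and 13.6% lower. Tnni2 (0.86, adjusted p = 0.124), Tnni1 (0.78, 0.184), Myl1 (-0.77, 0.132), Tnnt3 (-0.13, 0.864) and Mylpf (0.14, 0.841) did not. All Shunt libraries were above all TAC libraries in Atp2a1 (7.42 to 8.98 against 0.592 to 4.63 CPM). Tnnt1 was not free of overlap, since Shunt replicate 4 (33.4 CPM) lay between TAC replicates 1 and 4. Without TAC replicate 2, Atp2a1 was higher by 0.88 ± 0.18 (0.0031), where 18% of all genes passed, and Tnnt1 was at 0.43 (0.176). Tnnt1 also did not pass without Shunt replicate 1, 2, 3 or 5 (adjusted p 0.0598 to 0.0735). Without Shunt replicate 1, Myl1 passed (-1.19, 0.0056), and without TAC replicate 4 Tnni1 (1.68, 0.0068) and Tnni2 (1.30, 0.0468) did. With the clock difference as a covariate Atp2a1 was at 1.23 (0.0903) and Tnnt1 at 0.49 (0.314), and with only these groups in the fit at 1.37 (0.0745) and 0.75 (0.104).

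**Figure D3:**
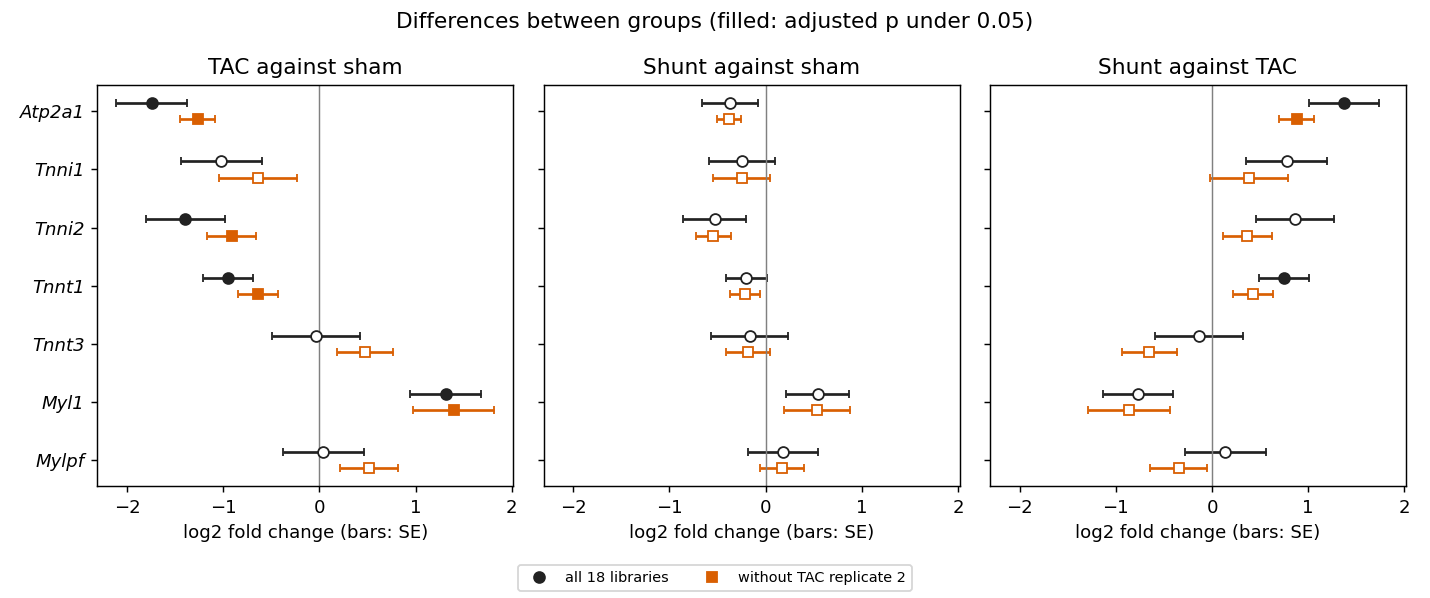
Log2 fold changes (x axis) of the 7 genes fitted, with SE as bars, in TAC against sham, Shunt against sham and Shunt against TAC, from all 18 libraries (black circles) and without TAC replicate 2 (orange squares); filled symbols passed an adjusted p of 0.05. Atp2a1 is filled in both fits in the comparisons with TAC (-1.74 and -1.26 against sham), and Tnnt3 moves from -0.04 to 0.47 when the library is left out.

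The library labelled cycD2 TAC replicate 2 stood apart in these genes as it did in Ccnd2. It was at least 4 times below both TAC replicate 1 and TAC replicate 4 in Atp2a1, Tnni2, Tnnt3 and Mylpf, which is 4 of 7, where 0.397% of all genes showed this. The genes were chosen for higher levels in transgenic ventricles and this library lacked the excess of Ccnd2, so nothing is read from that count or the next. It was below every sham, Shunt and other TAC library in 6 of the 7, as 18.7% of all genes were. Tnni1 at 0.671 CPM was above the WT range, which ended at 0.295, and below TAC replicate 1, at 1.20. At the same time the library had the highest Acta1 and Nppa of all 18, at 9404 and 4686 CPM. These are values of 1 library, and whether its label is right was not tested.

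Other genes of skeletal fibres did not move as a block with the 9. Of 27 markers of such fibres 20 could be fitted, and in sham 4 of them were above WT and 6 below, where 13.5% and 14.9% of all genes were. The median was 0.07, against -0.01 over all genes. The defining heavy chains of fast fibres were near 0 in every library, with at most 0.453 CPM for Myh1, 0.723 for Myh2 and 0.245 for Myh4. Over the groups, Myh1 had 36 counts in sham and 23 in WT, a ratio of 1.41 (95% exact interval 0.814 to 2.50), and Myh4 had 6 and 9. The embryonic heavy chain Myh3 had 24 counts against 5, a ratio of 4.33 (1.62 to 14.5, counting error only). Myh7, the slow heavy chain, is a ventricular gene too and marks nothing here.

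The largest falls were those of the calcium channel Cacna1s at -2.18 ± 0.23 (adjusted p = 8.05e-06, edgeR) and the actin-capping protein Tmod4 at -2.04 ± 0.29 (7.99e-05), both known from skeletal fibres. Myom3, Pgam2 and Trim72 also fell, by 1.46, 0.73 and 0.53. Pvalb, a calcium buffer of fast fibres, rose by 2.50 ± 0.41 (2.83e-04), yet only to 0.354 to 0.528 CPM. The 3 other markers that rose were chosen after their values were seen: Mybpc1 at 2.18, the calcium-store protein Casq1 at 1.79 and the skeletal release channel Ryr1 at 1.27. Ryr1 was at 0.226 to 1.10 CPM in WT and 1.24 to 2.01 in sham, and at 0.158 CPM in TAC replicate 2. The summed level of the 16 markers under 10 CPM in WT was 9.72 to 12.7 CPM in WT and 11.2 to 12.7 in sham.

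After TAC 6 markers rose and 3 fell of the 20 (median 0.24), where 16.4% of all genes rose and 14.5% fell. The myosin-binding protein Mybpc2 rose by 1.84 ± 0.29 (adjusted p = 2.56e-04, edgeR), Jsrp1 by 1.81 and Myom3 by 1.75 ± 0.27 (1.41e-04). The muscle enolase Eno3 fell by 0.69 ± 0.10 (6.41e-05), the glycogen phosphorylase Pygm by 0.44 and the creatine kinase Ckm by 0.44. TAC replicate 2 did not stand apart in these genes, with Mybpc2 at 149 CPM between 122 and 197 in the other TAC libraries. The summed level of the 16 markers of low level was 15.3 to 22.0 CPM in TAC and 10.1 to 21.7 in Shunt.

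**Figure D4:**
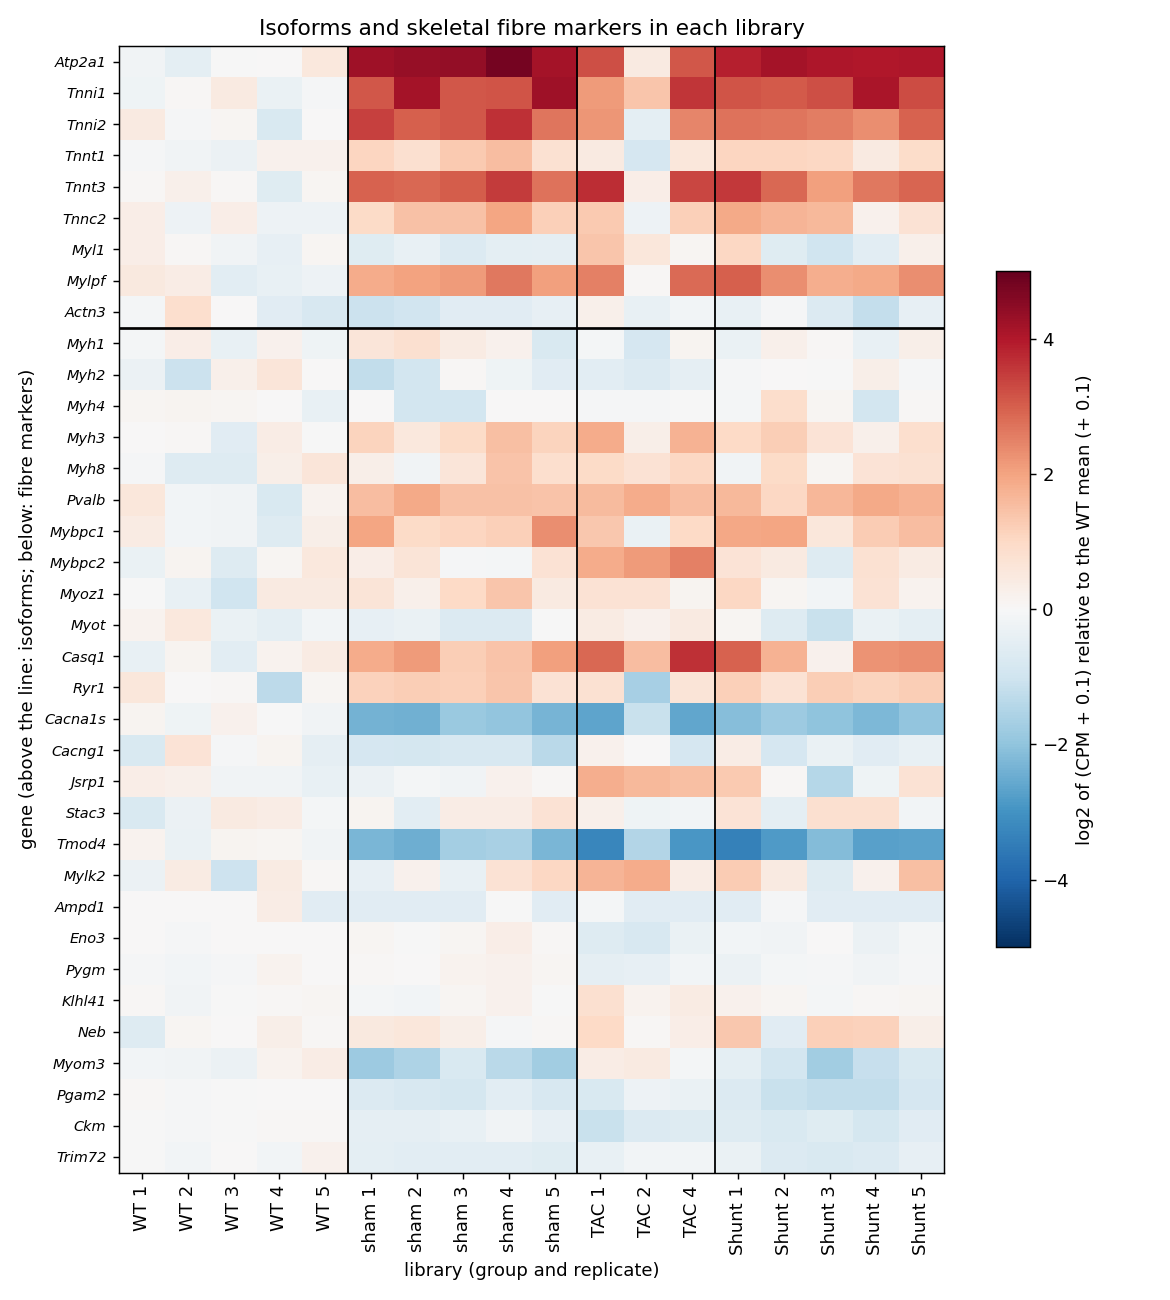
The 9 genes (above the line) and 27 markers of skeletal fibres (below) in each of the 18 libraries, as the log2 of CPM plus 0.1 relative to the WT mean plus 0.1, on a colour scale that ends at 5 in either direction. Atp2a1, Tnni1, Tnni2 and Tnnt3 are red in all transgenic libraries but pale in TAC replicate 2 (Tnni1 less so), while Cacna1s and Tmod4 are blue and the fast heavy chains Myh1, Myh2 and Myh4 stay pale.

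Regulators of skeletal muscle genes were listed as well, and 14 of 21 could be fitted. Myod1, Myog, Myf5 and Myf6, which set up skeletal muscle, had at most 0.349 CPM in any library. In sham 0 regulators were lower than in WT and 5 were higher, where 14.9% of all genes were lower and 13.5% higher. Among the 5 were Mef2d by 0.26 (adjusted p = 0.0029, edgeR), Sox6, which restrains slow fibre genes, by 0.54 (0.0040), Mef2a by 0.34 (0.0064) and Nfatc1 by 0.20 (0.0259). After TAC, Mef2a (-0.63), Mef2d (-0.28) and Sox6 (-0.46) fell, and the cofactor Vgll2 (1.95) and Srf (0.52) rose. Sox6 did not pass without TAC replicate 2 (-0.35, adjusted p = 0.119) or replicate 1 (-0.45, 0.0683), and without replicate 1 neither did Vgll2 (1.20, 0.192) and Srf (0.46, 0.0715).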

How the data were processed

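Left ventricle RNA of 18 mice was sequenced with a kit that does not keep the strand, and the authors deposited whole-number read counts per Ensembl gene for each library. The submitters' processing notes name STAR 2.3.0e and HTSeq 0.6.1p1, besides CASAVA 1.8.2, SAMtools 0.1.19, FastQC and DESeq2 1.8, and the build GRCm38 (mm10). The annotation release and the strand setting of the counting are not given in the sources used here. Of the deposited lines, those that name no gene stayed out of library sizes. Reads in no feature were 13.64% to 22.78% of the sum of gene counts, ambiguous reads and reads in no feature. Reads without a unique place were 37.61% to 45.94% of the sum of gene counts and all lines that name no gene. Libraries held 19297821 to 30594075 gene counts. The limit a count of 0 allows, 3 counts, was 0.0975 to 0.155 CPM at the effective library sizes. Intervals and limits cover counting error only.

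Groups were taken from the labels. All 18 libraries entered 1 fit with edgeR 4.0.16 in R 4.3.3 (filterByExpr with a minimum of 10 counts by group, TMM scaling, robust quasi-likelihood test), with Benjamini-Hochberg adjustment over all 14876 genes at 0.05. CPM values use effective library sizes (gene counts times the TMM factor), and RPKM values divide them by the exon length in the reference annotation. Shares of skeletal members were compared by exact permutation tests (scipy 1.17.1), and ratios of few counts were given exact intervals. Gene positions and RefSeq promoters are on GRCm38. The procedure was tested on simulated data. Alternatives were DESeq2 1.42.0, limma 3.58.1 (voom), other scaling and filters, covariates for Y-linked, clock and atrial genes, a replicate block and leaving out each library. The 9 genes and all lists were chosen with earlier results of these data known. Named genes are the 9, their heart counterparts, up to 6 genes of each list by smallest p in each comparison, the fibre heavy chains and the 3 genes nearest in pattern to each of the 7 fitted. Others are marked as chosen after their values were seen. A listed regulator is not reported here.

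Deviations from the group mean were correlated between same-numbered libraries. For TAC and sham the correlations were 0.129, 0.151 and 0.157 for replicates 1, 2 and 4. They ran from 0.0928 to 0.170 for Shunt and TAC, from -0.264 to 0.318 for Shunt and sham, and from -0.132 to 0.303 for sham and WT. The labels do not say that same-numbered libraries belong together. The replicate block was a factor for the replicate number over all 18 libraries.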

Additional observations from a re-analysis of the deposited data

Results flagged for a closer look

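Tnni1 was far higher in Shunt replicate 4, at 4.84 CPM, than in the other Shunt libraries. Mylpf was likewise highest in sham replicate 4, at 4.34 CPM, apart from the other sham libraries. Both gaps exceeded Dixon's limit, which chance passes in about 1 of 20 groups, and 42 groups were tested.

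The effect of Shunt against sham differed from that of TAC against sham in 2 genes. The difference, which equals Shunt against TAC, was 1.37 on the log2 scale for Atp2a1 (adjusted p = 0.0102, edgeR) and 0.75 for Tnnt1 (adjusted p = 0.0410). All 5 Shunt libraries were above all 3 TAC libraries in Atp2a1, and 1 Shunt library was not in Tnnt1. Without TAC replicate 2, Tnnt1 did not pass (adjusted p = 0.176, edgeR). Neither gene passed with the clock covariate (0.0903 for Atp2a1, 0.314 for Tnnt1) or with only these groups in the fit (0.0745 and 0.104). Time of day and Shunt against TAC cannot be told apart.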

How the results depend on the processing

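For TAC against sham, 4 of the genes Atp2a1, Tnni1, Tnni2, Tnnt1, Tnnt3, Myl1 and Mylpf passed. This became 2 with only the 2 groups in the fit, 2 with the clock covariate, 0 with the Y-linked covariate, 0 within the libraries with Arntl above Dbp (3, all lower, there without TAC replicate 2), and 2 without TAC replicate 2 and with the clock covariate. It was 5 with limma-voom and with the atrial covariate, where Tnni1 also passed. Leaving out 1 library gave 3 to 5. For Shunt against TAC, 2 passed. The count was 1 with no low-count filter, 0 with only the 2 groups, 4 with the Y-linked covariate, 0 with the clock covariate, and 1 without TAC replicate 2 with either the clock or the atrial covariate. Leaving out 1 library gave 1 to 4, with 1 without TAC replicate 2 or Shunt replicate 2, 3 or 5, and 4 without TAC replicate 4. The genes were chosen on a difference of transgenic ventricles from WT, so nothing is read from the counts for sham against WT. In that comparison 6 passed by the same threshold and 3 did so within the libraries with Arntl above Dbp, but 6 there without TAC replicate 2. With only the 2 groups in the fit 7 passed, Myl1 being lower (-0.50). DESeq2 and the fit with no low-count filter tested all 9 genes here, and 7 passed, all higher. Myl1 was lower in both and so not among them. Some other settings tested 8 of the 9. For Shunt against sham the count was 0 in every setting run. With the replicate block 4, 2, 0 and 6 passed for TAC against sham, Shunt against TAC, Shunt against sham and sham against WT, as without it. Over all genes the Y-linked covariate left 373 of 4600 calls for TAC against sham, only libraries with Arntl above Dbp left 1495, and for Shunt against sham DESeq2 called 228 where edgeR called 36.

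Signs changed only for log2 fold changes that did not pass. For Tnnt3 in Shunt against TAC they became 0.42 with limma-voom, 0.15 with the replicate block and 0.0931 with the Y-linked covariate, and for Mylpf in TAC against sham -0.39 with limma-voom and -0.23 with the replicate block. In Shunt against sham the Y-linked covariate gave 0.37 for Atp2a1, 1.77 for Tnni1, 0.60 for Tnni2, 0.46 for Tnnt1, 0.41 for Tnnt3 and -0.43 for Myl1, and in TAC against sham 0.0035 for Tnni1 and 0.32 for Tnnt3. Only in TAC did Y-linked genes vary widely within a group, between replicate 4 and replicates 1 and 2. The covariate therefore rests on the TAC libraries and cannot adjust Shunt against sham for sex. Tnnt3 in TAC against sham was 0.0797 within the libraries with Arntl above Dbp, 0.61 there without TAC replicate 2, and 0.52 and 0.47 without that replicate with the clock and the atrial covariate. Mylpf in Shunt against TAC was -0.45 and -0.38 in these fits. Leaving out 1 library gave -0.65 to 0.40 for Tnnt3 and -0.35 to 0.60 for Mylpf in Shunt against TAC, -0.57 to 0.47 and -0.42 to 0.52 in TAC against sham, and -0.0477 to 0.33 for Mylpf in Shunt against sham. It moved shares, in percentage points, from -0.00228 to 0.00142 for alpha-actinin and -0.00554 to 0.0250 for the regulatory light chain in Shunt against TAC, -0.00579 to 0.0248 for the latter in TAC against sham, and -0.000335 to 0.00212 for troponin C in Shunt against sham. The cause was not tested. Tnnc2 and Actn3 were below the depth needed for the fit.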

Other observations

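Genes nearest in pattern were sought for each of the 7 fitted genes among 12282 genes, by the mean absolute difference of centred log2 CPM over the 18 libraries. Tnnt3 and Mylpf were each other's nearest gene, at 0.334, where the median over all genes was 1.35 and 1.05. Tnnt3 was next nearest to Mcm2 (0.349) and Tnni2 (0.395). Tnni2 was nearest to Tnnt3, then to the lipoxygenase gene Alox5 (0.451) and Mcm2 (0.474), and Mylpf was next nearest to Mcm5 (0.366) and Cdt1 (0.379). Alox5 was at 5.33 to 7.31 CPM in WT, 28.2 to 39.2 in sham, 5.84 to 23.7 in TAC and 22.3 to 36.3 in Shunt libraries. Mcm2 was at 6.08 to 10.6 CPM in WT, 43.2 to 51.0 in sham and 38.8 to 45.2 in Shunt libraries, and at 8.32 in TAC replicate 2 beside 76.9 and 80.1 in the other TAC libraries. Atp2a1 was nearest to the receptor phosphatase gene Ptprt (0.410, median over all genes 1.8025), then to Tnni2 (0.513) and Tnni1 (0.624). Ptprt was at 0.981 to 2.36 CPM in WT, 26.6 to 32.5 in sham, 1.38 to 8.63 in TAC and 15.9 to 27.3 in Shunt libraries. Tnni1 was nearest to the potassium channel genes Kcne1 (0.521) and Kcnq5 (0.525) and to Ptprt (0.538). Tnnt1 was nearest to Tfpi, Pcp4l1 and Ttc12 (0.203 to 0.205), and Myl1 to Fam81a, Nostrin and Ednrb (0.197 to 0.216). The libraries share the split by Ccnd2, so these distances are a description.

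Tnni2 and Tnnt3 lie 54425 bases apart on chromosome 7 with Lsp1 between them. Lsp1 did not pass between sham and WT (log2 fold change -0.27, adjusted p = 0.140, edgeR) and rose in TAC against sham (1.06, adjusted p = 6.79e-05). Atp2a1 and Mylpf lie 745781 bases apart on the same chromosome.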
